A study of Mus musculus with 8 samples.

Results

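The genes described here build the ribosome: they are 38 listed genes for nucleolar proteins, RNA polymerase I and ribosome assembly factors, followed through mouse spermatogenesis. They were chosen by name and function, with earlier results of these data known, and all probe sets annotated to exactly 1 of them were taken. A probe set is a group of short DNA probes on the array that reads 1 transcript. Of the 38 genes, 37 had a probe set (73 in all), out of 18193 genes with one, and all 37 were among the 14149 genes tested. No probe set was named for Npm3, a nucleoplasmin family chaperone, so it has no value here. The study measured 4 kinds of germ cell on Mouse 430 2.0 arrays with 2 arrays each, namely spermatogonia of type A and of type B, spermatocytes at pachytene, and round spermatids. The labels give total RNA from mice of BL/6-129 background for all 8 arrays and name no mutation, treatment or age. Per the series' design text, the arrays came from separate germ cell preparations, so p-values measure the spread between preparations. The cell purification was not given in the sources used here.

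Ribosomes are built in the nucleolus, where RNA polymerase I copies the ribosomal DNA into 1 long precursor RNA. Small nucleolar ribonucleoprotein particles (snoRNPs) of the box C/D type guide ribose methylation of that RNA, and box H/ACA particles guide its pseudouridylation. A large complex, the small subunit processome, folds and cuts the part that becomes the 40S subunit, while a separate chain of factors builds the 60S subunit. Spermatogonia divide and grow, whereas pachytene spermatocytes are in the long prophase of meiosis, with the X and Y chromosomes silenced in the sex body, and round spermatids are haploid and no longer divide.

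Signals are the deposited linear MAS5 intensities. Their trimmed mean was 125 on every array, so a change is read against the remainder of its array. In these bulk samples fewer cells of a type and less RNA per cell cannot be told apart. Marker genes were used to check the stage labels. The summed signal of 5 round spermatid markers was 17700 and 22100 in round spermatids and 90.3 to 2030 elsewhere, and that of 5 pachytene markers was 12700 and 13500 in pachytene cells, 14800 and 15200 in spermatids and 396 to 525 in type A cells and type B replicate 1. The pachytene marker sum thus did not tell pachytene cells from spermatids, and its genes differed. Piwil1 was at 1791.5 and 1620.7 in pachytene cells and at 309.3 and 230.9 in spermatids. Pgk2 (716.9 and 847.8, then 2750 and 3123.2) and Ccna1 (524.5 and 561.6, then 1139.1 and 1227.3) were higher in spermatids. Replicate 2 of the type B cells stood apart from replicate 1, with a pachytene marker sum of 7300 against 525 and a spermatid marker sum of 1230 against 100. The correlation across genes between the type B replicates was 0.886, compared with 0.962 to 0.981 in the other groups. Stromal and endothelial markers (4 of 4 with a probe set) summed to 6930 to 9680 on the 4 spermatogonial arrays and to 620 to 808 on the 4 later arrays, where Col1a1 lay between 2.1 and 32.9. Most of this sum was Col1a1, Col3a1 and Acta2. Pecam1 was weak and overlapped, at 23.6 to 189.5 in spermatogonia and at 30.4 and 36.3 in pachytene cells. Sertoli markers, 5 of 5 with a probe set, summed to 3330 to 5160 in spermatogonia, 2330 to 3180 in pachytene cells and 525 to 679 in spermatids. Leydig markers (3 of 4 with a probe set) summed to 580 to 1360, 453 to 753 and 82.4 to 85.9 in the same order, and macrophage markers (4 of 4) to 431 to 716 in spermatogonia and 155 to 336 later. Most of the Sertoli sum was Clu, at 2034.9 and 2832.1 in pachytene cells. Wt1 was at 706.9 and 533.4 in type A and at 120.5 and 141.9 in pachytene cells. Sox9 and Amh were also lower there, while Rhox5 was not (121.3 and 61 in type A, 121.1 and 128.5 in pachytene cells). The part of these other cells in the results below was not tested.

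Most of the nucleolar genes had less transcript in pachytene spermatocytes than in type A spermatogonia. Of the 37 genes, 22 were called lower and 6 higher, where a call is an adjusted p under 0.05 in limma with Benjamini-Hochberg adjustment over all 14149 genes. Over all genes tested, 35.4% were lower and 27.1% higher. The median log2 change of the 37 genes was -0.81, and that of all genes tested was -0.15. The pachytene and type A arrays did not overlap for 33 of the 37 genes. The same count over all genes was not made, so it is not read as a trait of the 37. Changes ran from -2.88 for Ncl to 2.14 for Wdr12, so the 37 did not move as a block. With arrays centred on their 75th percentile, the median of all genes moved by 0.38 and the calls became 17 lower and 8 higher, which is 68.0% lower among those called instead of 78.6%. Centred on the median, which moved all genes by 0.33, they were 17 lower and 7 higher. Over all genes the split turned under these scalings, from 56.6% lower among those called to 41.1% with the 75th percentile and 43.4% with the median. The stromal and endothelial marker sum given above was lower over the same comparison.

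**Figure D1:**
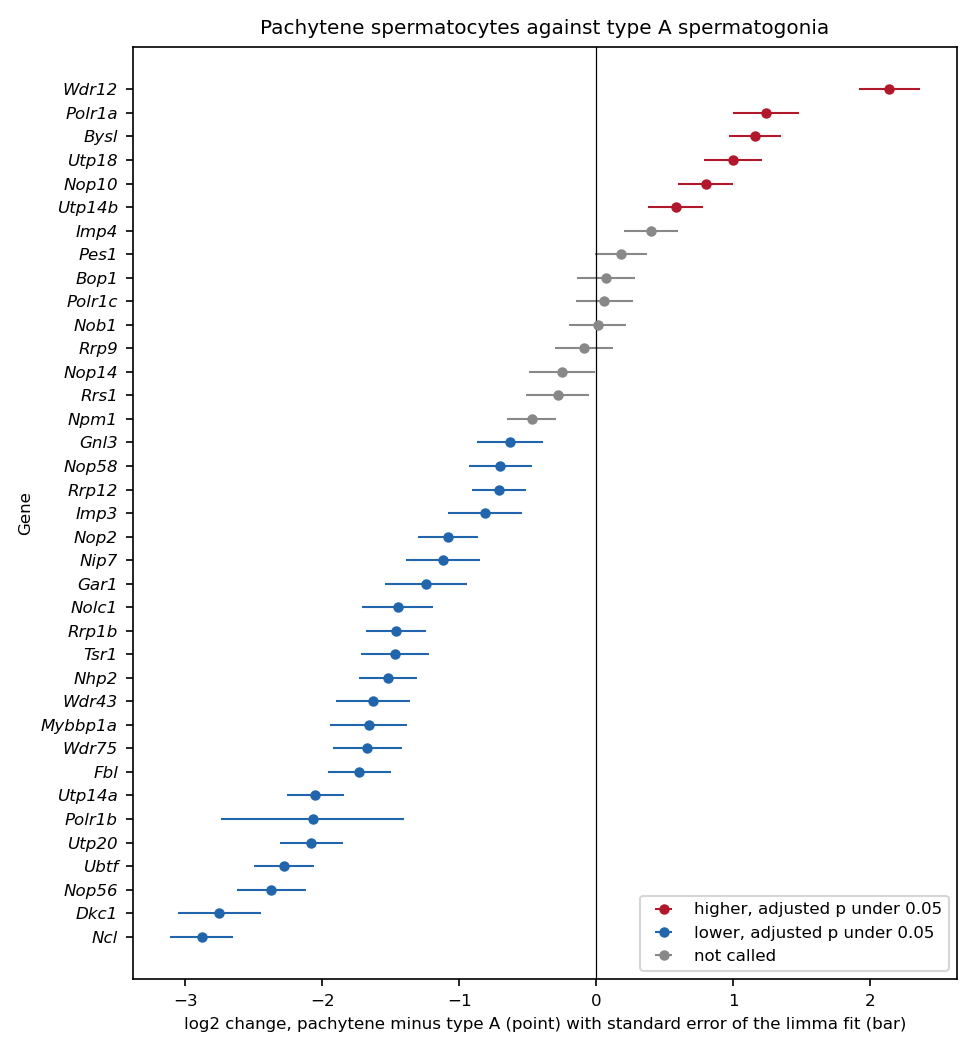
Log2 change in pachytene spermatocytes minus type A spermatogonia (x axis, on log2(signal + 16)) for each of the 37 genes (y axis, ordered by the change). Bars are 1 standard error of the limma fit, n = 2 arrays against 2. Blue points are genes called lower, red points genes called higher and grey points genes not called; the change runs from -2.88 for Ncl to 2.14 for Wdr12.

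The nucleolar chaperones and scaffolds were the most uniform group, with 4 of 5 lower, none higher and a median change of -1.45. Ncl encodes nucleolin, an abundant RNA-binding protein that acts early on the precursor RNA. Its signal was 3106 and 3291 on the type A arrays, 3599 and 2504 on the type B arrays, 439.6 and 402 on the pachytene arrays and 802 and 633 on the spermatid arrays. Both pachytene values lay far below all 4 spermatogonial values, and both spermatid values lay between them. The change from type A to pachytene cells was -2.88 ± 0.23 (± is the standard error of the fit, n = 2 arrays against 2), a 7.37-fold difference with an adjusted p of 8.36e-05. All 5 probe sets of Ncl fell, by -1.48 to -2.88.

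Npm1 encodes nucleophosmin, a histone chaperone of the nucleolus' outer layer that binds the maturing 60S particle. Npm1 signals were 2776 and 3024 in type A, 3463 and 3051 in type B, 2066 and 2123 in pachytene cells and 2019.8 and 1837 in spermatids. The later cells were below the spermatogonia without overlap, but by far less than for Ncl. The Npm1 change was -0.47 ± 0.18 against type A (adjusted p = 0.0552, not called) and -0.63 ± 0.18 against type B (adjusted p = 0.0187). A second Npm1 probe set changed by -0.77 against type A and by -0.88 against type B (limma adjusted p over probe sets 0.014 and 0.00948). Against type A the Npm1 adjusted p was under 0.05 in 7 of 18 alternatives and lay between 0.0136 and 0.736 over all of them, so whether it passed depended on the setting.

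Mybbp1a, Nolc1 and Gnl3 fell as well. Mybbp1a, which encodes a Myb-binding protein of the nucleolus, changed by -1.66 ± 0.28, and Nolc1, which encodes the snoRNP chaperone Nopp140, by -1.45 ± 0.26. Gnl3, which encodes nucleostemin, a GTPase of proliferating cells, changed by -0.63 ± 0.24 (adjusted p = 0.046). The Gnl3 call was the weakest of these: it was lost in 10 of 18 alternatives, among them both centrings.

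The core proteins of the box C/D particles fell together, except for Rrp9. Fbl encodes fibrillarin, the methyltransferase of the particle, and its signals were 1404 and 1769.5 in type A, 1984 and 1415 in type B, 439 and 488 in pachytene cells and 588 and 524 in spermatids. Nop56, a scaffold protein that holds the guide RNA, had 493 and 560.2, 587 and 372, 95.4 and 82.5 and 127 and 161 in the same order of stages. For both genes the 4 spermatogonial arrays lay above all 4 later arrays. The change from type A to pachytene cells was -2.37 ± 0.25 for Nop56 (5.17-fold) and -1.73 ± 0.23 for Fbl (3.33-fold), with adjusted p of 1.67e-04 and 3.89e-04.

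Nop58 is the partner of Nop56 in the same particle, and its transcript changed less. Its signals were 476 and 501 in type A, 505 and 359.7 in type B, 324 and 268 in pachytene cells and 445 and 359 in spermatids. The pachytene arrays were lowest, and the spermatid arrays overlapped those of type B. The Nop58 change was -0.70 ± 0.23 against type A (adjusted p = 0.0284, lost in 6 of 18 alternatives) and -0.51 ± 0.23 against type B (adjusted p = 0.0919). The difference between Nop58 and Nop56 was not tested. Rrp9, the protein specific to the U3 snoRNP, stayed between 148 and 225 on all 8 arrays and had a change of -0.09 ± 0.21.

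Among the box H/ACA proteins, 3 of 4 fell and 1 rose. Dkc1 encodes dyskerin, the pseudouridine synthase, and lies on the X chromosome. Its signals were 454 and 562 in type A, 623 and 325 in type B, 65.7 and 57.4 in pachytene cells and 109 and 96.7 in spermatids. Every spermatogonial array was above every later array, and the pachytene arrays were the lowest of all. Dkc1 changed by -2.75 ± 0.30 (6.73-fold, adjusted p = 1.73e-04), and its other probe sets by -2.92 and -3.52.

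Nhp2, which contacts the guide RNA, changed by -1.52 ± 0.21, and Gar1, which helps the enzyme release its substrate, by -1.24 ± 0.30. Nop10, the small protein that bridges dyskerin and Nhp2, went the other way. Its signals were 1365 and 1395 in type A, 1496 and 1706 in type B, 2223 and 2616 in pachytene cells and 1702 and 2133 in spermatids. The pachytene arrays were the highest, with no overlap with the spermatogonia. The Nop10 change was 0.80 ± 0.20 (adjusted p = 0.00909), and its second probe set had a change of 1.28. The Nop10 call was lost with quantile normalization (0.49, adjusted p = 0.0636) and without pachytene replicate 2 (0.68, adjusted p = 0.0691).

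The 4 RNA polymerase I genes split. Ubtf encodes UBF, the factor that keeps ribosomal DNA open for transcription, and its signals were 789.7 and 620.5 in type A, 574 and 477 in type B, 142 and 122 in pachytene cells and 148 and 176 in spermatids. All later arrays lay below all spermatogonial arrays, and Ubtf changed by -2.28 ± 0.22 (4.85-fold, adjusted p = 1.21e-04). Polr1b, which encodes the second largest subunit of the enzyme, had 101 and 339 in type A, 368 and 76.9 in type B, 33.9 and 31.1 in pachytene cells and 46.3 and 49.2 in spermatids. Replicates of Polr1b disagreed strongly within both spermatogonial groups, though every spermatogonial array was above every later one. Its change of -2.07 ± 0.67 (adjusted p = 0.0258) had the largest standard error of the 37 genes and was lost in 6 of 18 alternatives, including that without type A replicate 2 (-1.27, adjusted p = 0.175).

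Polr1a encodes the largest subunit of RNA polymerase I. Its signals were 119 and 134 in type A, 101 and 158 in type B, 324 and 318 in pachytene cells and 138 and 105 in spermatids. Only the pachytene arrays were high, and the other 3 stages overlapped. The Polr1a change was 1.24 ± 0.24 (2.37-fold, adjusted p = 0.0024), but its 2 other tested probe sets had changes of -0.36 and -0.04. The mean of all Polr1a probe sets changed by 0.14 (adjusted p = 0.496), so the rise rests on 1 probe set. Polr1c, a subunit shared with RNA polymerase III, had a change of 0.06 ± 0.21 and signals between 448 and 677.

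**Figure D2:**
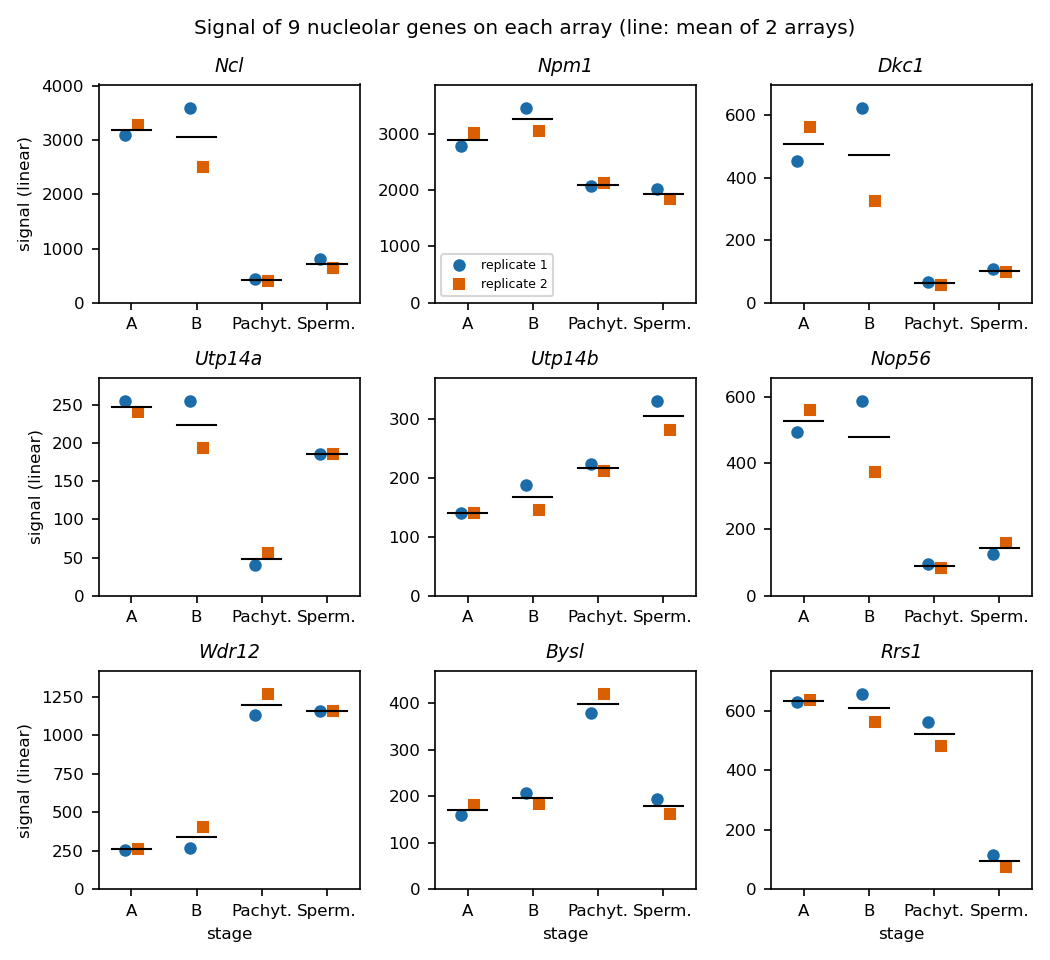
Deposited linear signal (y axis, from 0) of 9 genes on each array, by stage (x axis; Pachyt. is pachytene spermatocytes and Sperm. is round spermatids). Circles are replicate 1, squares replicate 2 and lines the mean of 2 arrays; Ncl is at 2504 to 3599 in spermatogonia and 402 to 439.6 in pachytene cells, while Wdr12 is at 254 to 402 and 1131 to 1268.

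Factors of the small subunit processome and of 40S assembly moved in both directions, with 7 of 13 lower and 3 higher. Utp20, a very large scaffold protein of the processome, had signals of 686 and 682 in type A, 612 and 429 in type B, 169 and 133 in pachytene cells and 122 and 119.9 in spermatids. The 4 spermatogonial arrays were all above the 4 later ones, and the change was -2.08 ± 0.23 (4.22-fold, adjusted p = 1.74e-04). The WD-repeat proteins Wdr75 and Wdr43, members of the subcomplex that first binds the precursor RNA, changed by -1.67 ± 0.25 and -1.63 ± 0.27. Tsr1, a GTPase-like protein of late 40S particles, changed by -1.47 ± 0.25. Imp3, a component of the U3 snoRNP, changed by -0.81 ± 0.27 and Rrp12, an export and maturation factor, by -0.71 ± 0.20. The calls of Imp3 and Rrp12 were each lost in 6 of 18 alternatives, among them all 3 rescalings.

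Higher in pachytene cells were Bysl, Utp18 and Utp14b. Bysl encodes bystin, which acts late in 40S assembly, and its signals were 158 and 182 in type A, 206 and 184 in type B, 379.6 and 419.5 in pachytene cells and 194 and 162 in spermatids. The pachytene arrays stood above all the others, with a change of 1.16 ± 0.19 (2.23-fold, adjusted p = 0.00112) that held in all 18 alternatives. Utp18, a WD-repeat subunit of the processome that recruits the RNA exosome, had 511 and 465 in type A, 678 and 508 in type B, 1014 and 964 in pachytene cells and 976 and 829 in spermatids. Both later stages were above both spermatogonial stages, and Utp18 changed by 1.00 ± 0.21 (adjusted p = 0.00363). With the mean of its 2 probe sets the Utp18 change was 0.49 (adjusted p = 0.056). Nop14, Nob1 and Imp4 had changes of -0.25, 0.01 and 0.40 that did not pass.

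Among the 60S factors 3 of 7 fell (42.9%, where 35.4% of all genes did) and 1 rose. Rrp1b, a nucleolar protein of 60S precursors, changed by -1.46 ± 0.22, and Nop2, an rRNA methyltransferase, by -1.08 ± 0.22. Nip7, a small RNA-binding protein, changed by -1.12 ± 0.27 on the probe set used and by 0.72 on its second, weaker probe set. The mean of both Nip7 probe sets was -0.20 (adjusted p = 0.424), so its direction depends on the probe set.

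Pes1, Bop1 and Wdr12 encode the proteins of 1 complex, PeBoW, which matures the 60S subunit, and their transcripts differed. Wdr12 had signals of 254 and 263 in type A, 270.3 and 402 in type B, 1131 and 1268 in pachytene cells and 1159 and 1162 in spermatids. All 4 later arrays were above all 4 spermatogonial arrays, and type B replicate 2 was the highest of these. The Wdr12 change was 2.14 ± 0.22 (4.42-fold, adjusted p = 1.54e-04), the largest rise of the 37 genes. A second probe set of Wdr12, with signals between 25.8 and 75.3, had a change of 0.43 (adjusted p = 0.133 over probe sets). It was lowest in spermatids (25.8 and 27.9), with a change of -1.01 from pachytene cells (limma adjusted p over probe sets 0.0123). The high spermatid level of Wdr12 thus rests on the probe set used. The mean of all Wdr12 probe sets changed by 0.92 from type A to pachytene cells (adjusted p = 0.00344). Bop1 had a change of 0.07 ± 0.21 and signals between 347 and 536.

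For Pes1 the probe set used gave 341 and 371 in type A, 413 and 341 in type B, 385 and 424 in pachytene cells and 179.9 and 178 in spermatids. Its spermatogonial and pachytene arrays lay close together and only the spermatid arrays were low, with a change of 0.18 ± 0.19 from type A to pachytene cells (adjusted p = 0.447). The second Pes1 probe set was at 102 to 128 on the spermatogonial arrays and at 24.5 and 29.6 on the pachytene arrays, a change of -1.60. With the mean of both, Pes1 was called lower (-0.71, adjusted p = 0.00677), and with the 75th percentile centring it was called higher (0.56, adjusted p = 0.039), so the call went both ways with the setting. Rrs1, which brings the 5S RNA into the 60S particle, had a change of -0.28 ± 0.23.

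**Figure D3:**
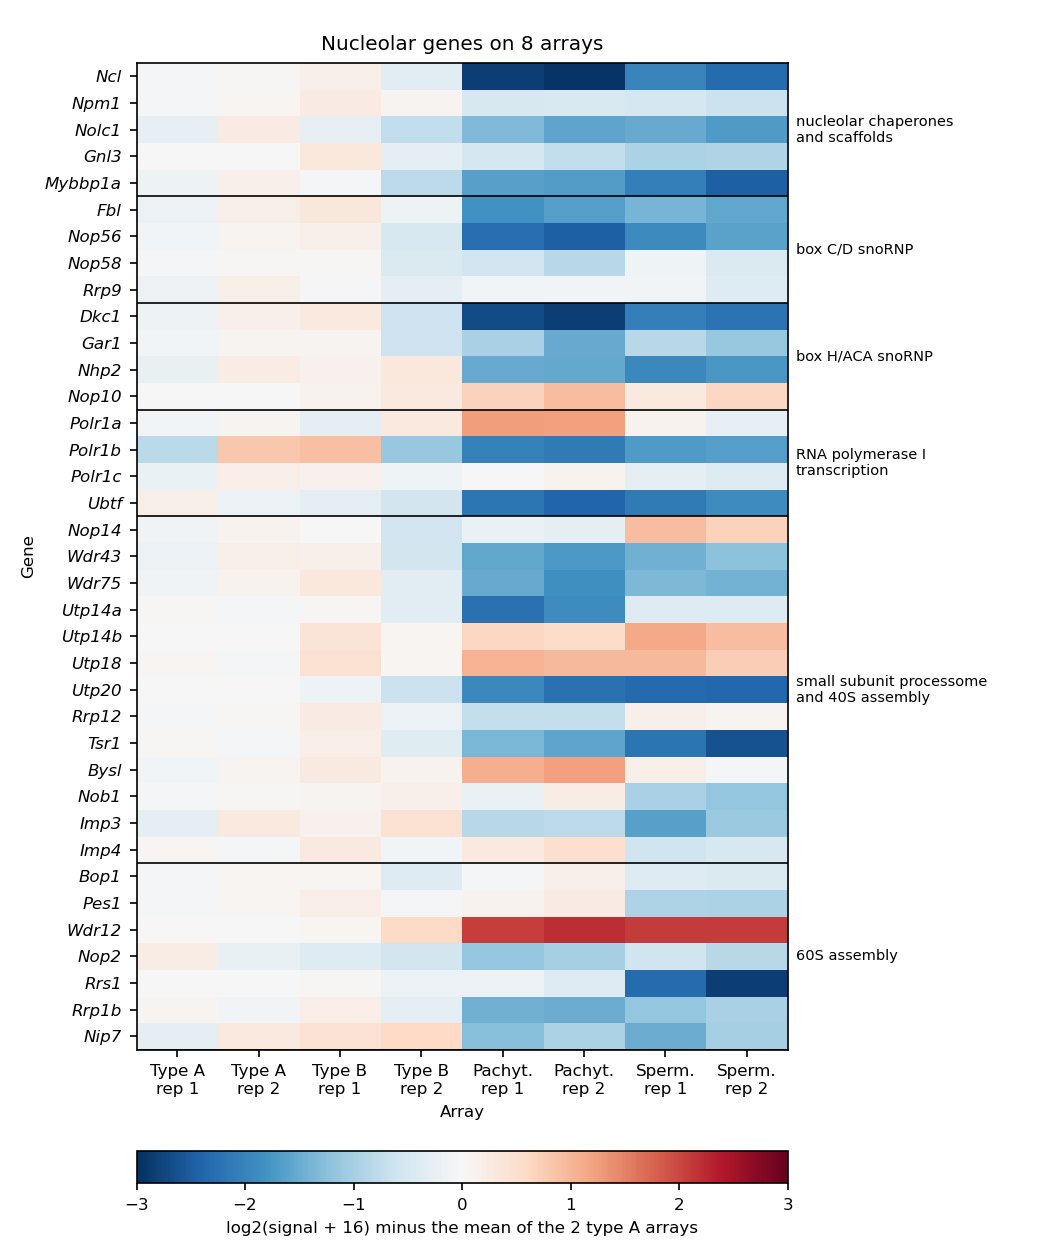
Colour map of log2(signal + 16) minus the mean of the type A arrays for the 37 genes (rows, grouped by role) on the 8 arrays (columns; Pachyt. is pachytene spermatocytes and Sperm. is round spermatids). Blue is below and red above type A, and the scale runs from -3 to 3; most genes turn blue at the pachytene arrays, while Wdr12, Polr1a, Bysl, Utp18, Nop10 and Utp14b turn red.

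Dkc1 and Utp14a, 2 of the 37 genes, lie on the X chromosome, and both fell. This was common there, since 72.5% of the 477 X-linked genes tested were lower in pachytene cells than in type A. Utp14a encodes a processome subunit that activates an RNA helicase late in its work. Its signals were 255 and 240.4 in type A, 254 and 194 in type B, 40.2 and 55.7 in pachytene cells and 185 and 186 in spermatids. The pachytene arrays were low, and the spermatid arrays came back near those of type B. Utp14a changed by -2.05 ± 0.21 from type A to pachytene cells (4.15-fold, adjusted p = 1.55e-04) and by 1.67 ± 0.21 from there to spermatids (3.18-fold, adjusted p = 7.06e-04). A second, weak Utp14a probe set, at 22.5 to 45.7 on all arrays, had changes of -0.18 and -0.25. Without the X-linked pair, 20 of 35 autosomal genes were lower and 6 higher, with a median change of -0.71.

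Utp14b is an autosomal retrogene copy of Utp14a that is known to be needed for sperm production in the juvenile spermatogonial depletion mutant. Its signals were 141 and 141 in type A, 188 and 146 in type B, 224 and 212 in pachytene cells and 331 and 282 in spermatids. Both later stages lay above the spermatogonia, opposite to Utp14a at the pachytene stage. The Utp14b change was 0.58 ± 0.20 (1.49-fold, adjusted p = 0.0333), and it was lost when any 1 type A or pachytene array was left out (adjusted p 0.0945 to 0.136). Its RefSeq entry and that of Acsl3 start at the same base, and whether the probe set also reads Acsl3 transcripts was not tested. The upstream sequences of both X-linked genes are shown because X-linked genes as a class fell at this stage. They are the 250 bases before each start from RefSeq (GRCm38.p6, plus strand), at chrX:75095604-75095853 for Dkc1 and chrX:48256684-48256933 for Utp14a, in lower case because neither motif searched below occurs in them.
Dkc1: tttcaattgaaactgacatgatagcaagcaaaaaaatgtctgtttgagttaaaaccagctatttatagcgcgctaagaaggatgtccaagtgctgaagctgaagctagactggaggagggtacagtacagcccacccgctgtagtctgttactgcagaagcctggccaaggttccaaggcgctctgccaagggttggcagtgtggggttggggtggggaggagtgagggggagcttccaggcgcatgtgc
Utp14a: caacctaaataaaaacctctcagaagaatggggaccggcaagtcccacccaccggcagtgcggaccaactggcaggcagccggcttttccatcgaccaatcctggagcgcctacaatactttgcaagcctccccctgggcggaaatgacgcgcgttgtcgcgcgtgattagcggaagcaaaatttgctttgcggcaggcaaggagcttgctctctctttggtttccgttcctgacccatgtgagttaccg
Their GC content was 52.0% for Dkc1 and 56.0% for Utp14a, and the median over all 32851 promoter windows, which also hold 50 bases after the start, was 52.7%.

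Promoters of all members were searched in the same RefSeq table, which held 33 of the 38 genes in 41 windows of 250 bases before to 50 after a start. Bop1, Fbl, Npm1, Rrp12 and Rrs1 were not matched. The E-box CACGTG, read the same on both strands and known as letters bound by Myc and related factors, was in the windows of 9 of 33 genes (27.3%) and of 8.09% of all 27025 genes in the table. The share was 5 of 20 among genes lower in pachytene cells, 2 of 6 among those higher and 2 of 6 among those not called. The motif therefore occurred in all these classes of change. The median GC content was 58.0% over the 41 windows of these genes and 52.7% over all windows. The part of base composition in the E-box share was not tested. The CRE TGACGTCA, the letters of the cyclic AMP response element, was in none of the 33 and in 2.03% of all genes, which says only that these letters are not in these windows. The 9 stretches are shown with 12 bases on each side where the window allows, 5′ to 3′ on the gene's strand, with the E-box in capitals.
Tsr1 (chr11:74898092-74898121, plus strand): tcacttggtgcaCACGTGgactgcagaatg
Utp20 (chr10:88826765-88826789, minus strand): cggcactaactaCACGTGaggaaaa
Mybbp1a (chr11:72441355-72441376, plus strand): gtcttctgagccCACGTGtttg
Wdr43 (chr17:71616220-71616249, plus strand): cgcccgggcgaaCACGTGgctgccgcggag
Nop2 (chr6:125131811-125131840, plus strand): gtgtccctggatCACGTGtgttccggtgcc
Utp18 (chr11:93885769-93885798, minus strand): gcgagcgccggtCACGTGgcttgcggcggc
Utp14b (chr1:78658365-78658394, plus strand): cgcgggcgcgggCACGTGggtggggtcgtc
Pes1 (chr11:3963965-3963994, plus strand): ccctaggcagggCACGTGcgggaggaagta
Imp4 (chr1:34439696-34439725, plus strand): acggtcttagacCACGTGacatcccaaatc
The Tsr1, Utp20, Mybbp1a, Wdr43 and Nop2 stretches belong to genes that fell, those of Utp18 and Utp14b to genes that rose, and those of Pes1 and Imp4 to genes not called. The first base of the E-box lay from 121 bases before the start in Imp4 (position -121) to 40 bases after it in Mybbp1a, and the Utp14b window lies inside the longer RefSeq entry of that gene. A match is a description of the sequence and no measured binding site.

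The step from type B spermatogonia to pachytene spermatocytes shares its pachytene arrays with the comparison above, so it is no independent repeat. In it 22 of 37 genes were called lower and 5 higher, where 32.3% and 25.4% of all genes tested were. The median change was -0.74, against -0.07 over all genes. By role, all 5 chaperone and scaffold genes fell, as did 2 of 4 box C/D, 3 of 4 box H/ACA, 2 of 4 polymerase, 7 of 13 small subunit and 3 of 7 60S genes. Changes side by side (type B first, type A second) were -2.79 and -2.88 for Ncl, -2.59 and -2.75 for Dkc1, -2.21 and -2.37 for Nop56, -1.91 and -2.05 for Utp14a, and -1.96 and -2.07 for Polr1b. On the higher side they were 1.81 and 2.14 for Wdr12, 1.24 and 1.24 for Polr1a, 0.98 and 1.16 for Bysl, 0.74 and 1.00 for Utp18, and 0.59 and 0.80 for Nop10. With the 75th percentile centring 15 genes were lower and 7 higher (68.2% lower among those called instead of 81.5%), and the median of all genes moved by 0.32. Over all genes 40.7% of those called were then lower, instead of 56.0%.

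Type B replicate 2, the array with pachytene and spermatid marker signal, mattered for the size of these changes. Without it 23 genes were lower and 4 higher, and without replicate 1 the counts were 15 and 4. The Ncl change was -3.05 without replicate 2 and -2.53 without replicate 1, and the Dkc1 change -3.04 and -2.14. Polr1b changed by -2.98 (adjusted p = 0.00119) without replicate 2 and by -0.94 (adjusted p = 0.162) without replicate 1. Utp18 lost its call without replicate 2 (0.53, adjusted p = 0.0681). Without replicate 1, Npm1, Nolc1, Gnl3, Gar1, Nop10, Rrp12 and Nop2 lost theirs, as did Polr1b. With the mean of all probe sets the count of higher genes was 3, and without either pachytene array it was also 3.

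The gap between the type B arrays ran the same way in most nucleolar genes. Replicate 2 was below replicate 1 for 30 of 37 genes (81.1%), compared with 53.6% of all genes tested. The median difference was -0.41 on the log2 scale, against -0.05. Of the 22 genes lower in pachytene than type A cells, 19 were lower in replicate 2 (86.4%), where 68.4% of all genes lower in pachytene cells were. Of the 6 genes higher in pachytene cells, 3 were lower in replicate 2 (50%), where 22.8% of all such genes were. Polr1b had the widest gap, from 368 to 76.9, and Dkc1 the next, from 623 to 325. The part of the late-cell signal in this gap was not tested.

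**Figure D4:**
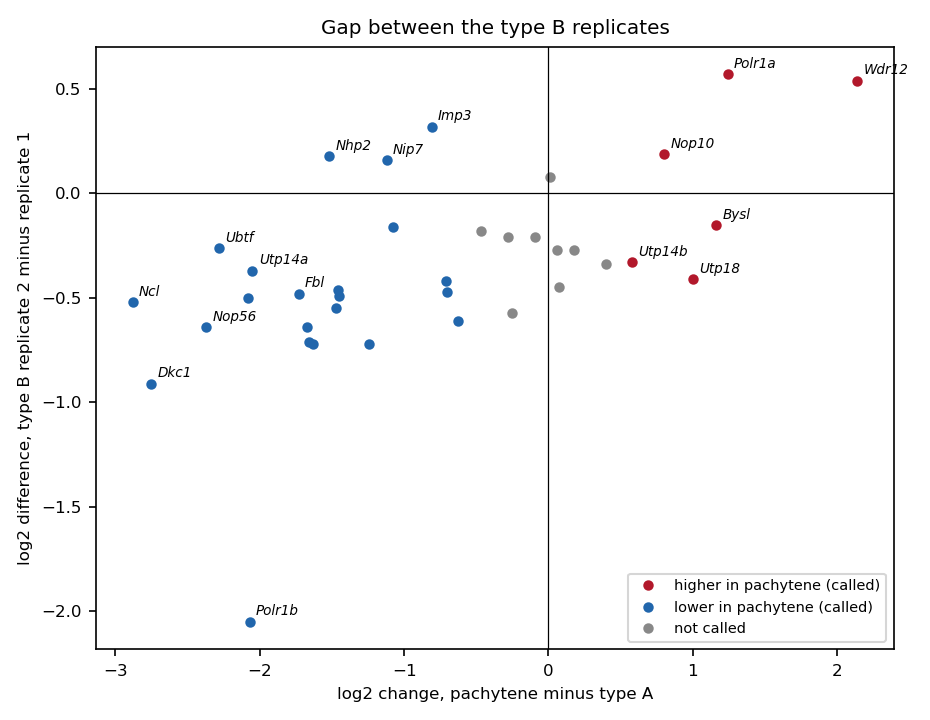
Log2 difference between the type B arrays (replicate 2 minus replicate 1, y axis) against the log2 change from type A to pachytene cells (x axis) for the 37 genes, coloured by the call in the latter (blue lower, red higher, grey not called). The y values lie below 0 for 30 of 37 genes; Polr1b lies lowest, and Polr1a and Wdr12 highest.

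No nucleolar gene passed the test between type B and type A spermatogonia. By limma, 0 of 37 genes were called higher and 0 lower (0.00% of all genes tested in each direction), and none had an unadjusted p under 0.05, which 787 higher and 596 lower of all genes had. The median change was -0.03 and single changes ran from -0.49 ± 0.26 for Nolc1 to 0.51 ± 0.27 for Nip7. The smallest adjusted p was 0.511. The arrays of both groups did not overlap for 10 of the 37 genes. As above, this count was not made over all genes, so these 10 genes are not read as differing between the groups. Leaving out any 1 array gave 0 calls as well, and the median was then -0.26 to 0.14, the lowest without type B replicate 1. In that fit 1147 of all genes were called higher and 194 lower, so the 0 over all genes did not hold there. Undifferentiated spermatogonia markers (3 of 4 with a probe set) summed to 1080 to 1320 in type A and 551 to 661 in type B, mostly through Zbtb16, while Gfra1 overlapped between the groups. Differentiating spermatogonia markers (4 of 4) summed to 2190 and 2440 in type A and to 3050 and 2400 in type B, with overlap. This sum did not mark spermatogonia, since it was 2980 and 3080 in spermatids. Dmrtb1 went from 317.5 and 254 in type A to 2508.1 and 2607.4 in spermatids, while Kit, Stra8 and Crabp1 were lower there. In type B replicate 2, Kit, Stra8 and Crabp1 were below replicate 1, and Dmrtb1 was above it (734.6 against 374.4).

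From pachytene spermatocytes to round spermatids 26 of the 37 nucleolar genes did not pass the test, and those that did went both ways. In all, 7 of 37 were called lower and 4 higher, with 19.0% and 15.7% of all genes tested, so both shares were near the background. The median change was -0.13, against -0.06 over all genes. The count of higher genes fell when a pachytene or spermatid array was left out and rose when a type B array was. The count of higher genes over all genes tested moved the same way, so this shift is not read as particular to the 37. Type B arrays are not part of this comparison and enter it through the spread shared by all groups. The count of lower genes also fell without a pachytene or spermatid array.

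Rrs1 fell furthest at this step. Its signals were 631 and 638 in type A, 656 and 563 in type B, 563 and 482 in pachytene cells and 115 and 76.0 in spermatids. The first 3 stages lay close together and the spermatid arrays far below. Rrs1 changed by -2.29 ± 0.23 (4.89-fold, adjusted p = 2.02e-04), and its second probe set by -2.12. Pes1, described above, changed by -1.11 ± 0.19 (2.16-fold, adjusted p = 0.00282), so 2 of the 7 60S genes fell here.

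Bysl, highest in pachytene cells, had a change of -1.10 ± 0.19. Polr1a had a change of -1.31 ± 0.24, and its 2 other tested probe sets fell as well, by -0.79 and -1.61. In the 40S branch, Nob1, the nuclease that makes the final cut of the small subunit RNA, had signals of 152 and 159 in type A, 164 and 175 in type B, 133 and 184 in pachytene cells and 71.9 and 60.9 in spermatids. The spermatid arrays of Nob1 lay below all the others, with a change of -1.07 ± 0.21 (adjusted p = 0.00521). Imp4, a U3 snoRNP component, changed by -0.94 ± 0.20, and Tsr1 by -0.92 ± 0.25. For Tsr1 this continued its earlier fall, and the call was lost in 4 of 18 alternatives.

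Nop14, Rrp12, Utp14a and Ncl were higher in spermatids than in pachytene cells. Nop14, a core protein of the processome, had signals of 348 and 401 in type A, 376 and 247 in type B, 321 and 301 in pachytene cells and 724 and 617 in spermatids. The spermatid arrays were above all the others, with a change of 1.07 ± 0.24 (2.10-fold, adjusted p = 0.00937). Rrp12 had 237 and 246 in type A, 288 and 212 in type B, 142 and 141 in pachytene cells and 271 and 258 in spermatids. The Rrp12 spermatid arrays were back among those of the spermatogonia, with a change of 0.83 ± 0.20 (adjusted p = 0.0141). Its call was lost whenever a pachytene or spermatid array was left out (adjusted p 0.0689 to 0.0804). Utp14a, on the X chromosome, belonged with the 31.0% of X-linked genes that were higher in spermatids, and the change of Dkc1, the other X-linked gene, was 0.62 ± 0.30 (adjusted p = 0.152). The other Dkc1 probe sets changed by 0.94 and 0.54 (limma adjusted p over probe sets 0.0328 and 0.19), so whether Dkc1 passed depended on the probe set.

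The change of Ncl was 0.74 ± 0.23 (1.67-fold, adjusted p = 0.0405), but the call was lost in 10 of 18 alternatives, with adjusted p up to 0.216. Its spermatid signals of 802 and 633 were still far under the 2504 to 3599 of the spermatogonia. Counting by stage, the highest mean level of the 37 genes was in type A cells for 18, in type B for 7, in pachytene cells for 9 and in spermatids for 3. The lowest was in spermatids for 17 and in pachytene cells for 14. Over all genes tested the highest stage was type A for 31.9% and spermatids for 25.7%, and the lowest was spermatids for 36.5% and pachytene for 24.3%.

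Other genes of the pathway, from lists that hold none of the 37, were compared between pachytene and type A cells in the same limma fit, where 35.4% of all genes were lower and 27.1% higher. Of 44 other small subunit genes tested 21 were lower and 4 higher, with a median change of -0.44. The processome genes Wdr3 (-2.58) and Pdcd11 (-2.52) and the 40S factor Tsr2 (-2.18) fell, and Nop9 (2.38), Rrp7a (1.98) and Utp23 (1.25) rose. That split depends on scaling: it was 11 lower and 13 higher with the 75th percentile centring, and 11 lower and 9 higher with the median centring. Of 44 other 60S genes 16 were lower (36.4%, about the share of all genes) and 5 higher (median -0.33), with Noc2l (-2.71), Rrp8 (-2.02) and Las1l (-2.0) on the lower side and Lyar (3.04), Sbds (2.45) and Ddx51 (1.45) on the higher side. With the 75th percentile centring the 60S split was 12 lower and 10 higher. Tsr2 and Las1l are X-linked.

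Of 19 genes for RNA polymerase I and its regulators, 12 were lower and 4 higher, with a median change of -0.83. The signal of Myc, a transcription factor known to drive ribosome production, was 73.8 and 195 in type A, 134 and 149 in type B, 2.3 and 11 in pachytene cells and 3.0 and 1.5 in spermatids. All later arrays were near the bottom of the scale. Myc changed by -2.63 ± 0.38 (adjusted p = 5.62e-04), a size that depends on the pseudocount at such low signals. Also lower were Taf1c (-2.36), a subunit of the polymerase I selectivity factor, and Polr2h (-2.12), a subunit shared by the RNA polymerases. On the higher side were Polr1d (2.19), also a polymerase subunit, the selectivity factor subunit Taf1b (1.74) and the terminator protein Ttf1 (0.91). With either centring the list had 7 lower genes, beside 4 to 5 higher ones.

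Of 11 snoRNP assembly genes 3 were lower and 3 higher (median -0.29). Shq1 (-2.02), the chaperone of dyskerin, the cap methylase Tgs1 (-1.88) and the export adaptor Phax (-1.66) fell, while Znhit3 (2.51), Ruvbl2 (2.01) and Pih1d1 (1.86), all box C/D assembly factors, rose. Of 15 exosome and rRNA exonuclease genes 6 were lower and 3 higher (median -0.20), with Mphosph6 (-2.29), C1d (-1.67) and Xrn2 (-1.35) lower and the exosome subunits Exosc5 (3.11), Exosc3 (2.13) and Exosc10 (0.74) higher. With either centring the exosome list had 4 lower and 5 higher.

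The step to spermatids and that from type B to pachytene cells used overlapping arrays, and their counts are given only beside those above. Over all genes tested, 32.3% were lower and 25.4% higher from type B to pachytene cells, and 19.0% and 15.7% from there to spermatids. From type B to pachytene cells 19 lower and 3 higher of the 44 small subunit genes passed, 18 and 5 of the 60S genes, 10 and 4 of the polymerase I genes, 3 and 3 of the snoRNP assembly genes and 4 and 3 of the exosome genes. From pachytene cells to spermatids 10 lower and 3 higher passed among the small subunit genes, 10 and 0 among the 60S genes, 7 and 1 among the polymerase I genes, and 1 and 1 in each of the others. In the small subunit list and in the 60S list 22.7% were lower at this step, near the share of all genes. The 60S list had 1 higher and 14 lower genes at an unadjusted p under 0.05 in this limma comparison. The 60S count of lower genes fell when a pachytene or spermatid array was left out and rose when a type B array was. The count of lower genes over all genes tested moved the same way, so this shift is not read as particular to the 60S list.

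Cytosolic ribosomal proteins, the substance that these factors assemble, were lower for 27 of 41 genes tested and higher for 1, with a median change of -0.86. Only 42 of the 74 listed had a probe set annotated to 1 gene, and these transcripts have many near-identical pseudogenes. Rpl14, Rps19 (-2.09) and Rpsa (-1.70) were among those that fell, and Rps25 (0.72) rose. The pachytene signals of Rpl14 were 2.1 and 2.9, so the size of its fitted change depends on the pseudocount and is not ranked. With either centring 17 were lower and 1 higher. At the next step, to spermatids, limma called 0 of the 41 in either direction, with 1 at an unadjusted p under 0.05, and the median was -0.03.

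**Figure D5:**
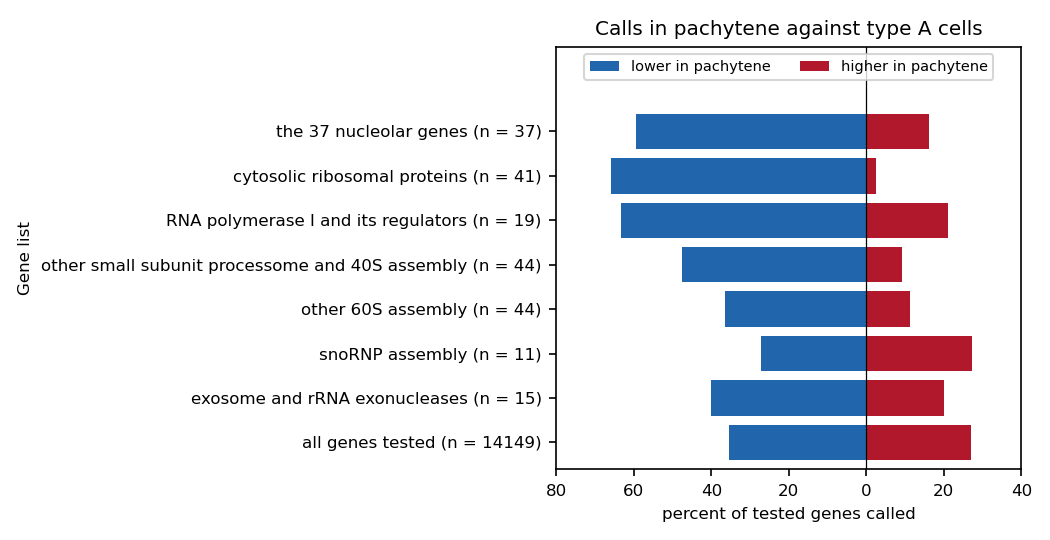
Percent of tested genes (x axis) called lower (blue, to the left of 0) or higher (red, to the right) in pachytene than in type A cells, for the 37 nucleolar genes, 6 further gene lists and all 14149 genes tested (y axis, number tested in brackets). Genes called lower make up 65.9% of the ribosomal proteins, 63.2% of the polymerase I list and 59.5% of the 37 nucleolar genes, and snoRNP assembly has an even bar with 27.3% on each side.

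Array controls moved in the same direction as the nucleolar genes. The 3′ control probe set for 18S ribosomal RNA was at 2658 to 3451 on the spermatogonial arrays and at 120.1 to 276 on the later ones. The priming step of the labelling is not known here, so this probe set is not read as a measure of ribosome content. The ratio of 3′ to 5′ signal, a sign of RNA integrity, ran from 1.28 to 1.68 for actin and from 0.726 to 0.969 for Gapdh over the 8 arrays. The part of these in the results was not tested.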

How the data were processed

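The 38 genes and the gene lists were chosen with earlier results of these data known. The authors deposited 1 linear intensity per probe set and array, for which the submitters' processing notes name MAS5; its version and detection calls were not given in the sources used here. Of 45101 probe sets, 64 were controls, 34945 named 1 gene in the platform annotation, 932 several and 9160 none; 204 of the first kind were not in the gene table (GRCm38.p6), and Npm3 had none. Values were analysed as log2(signal + 16), with 1 probe set per gene (highest mean over the arrays) and genes above the array median on at least 2 of 8 arrays. A fold on this scale understates the change of low genes. limma 3.58.1 in R 4.3.3 (lmFit over all 8 arrays, 1 mean per group, eBayes without trend; 4 residual and 4.04 prior degrees of freedom) was used two-sided, with Benjamini-Hochberg adjustment within each of 4 comparisons over all genes, or over all 28635 probe sets where single probe sets are named. The fit was tested on simulated data. Signals on every array are given for the X-linked genes and Utp14b, for Ncl, Npm1, Fbl, Nop56 and Nop58, and for the 5 genes with the largest called change in each direction of a comparison; up to 3 genes per list and direction are named. Alternatives were the pseudocount, the filter, 3 rescalings, the mean of all probe sets, an intensity trend, the replicate number as a block, and leaving out each array. The number of arrays limits the precision.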

Additional observations from a re-analysis of the deposited data

How the results depend on the processing

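Called in all 18 alternatives were 17 of 28 genes between pachytene and type A cells, 16 of 27 between pachytene and type B cells and 5 of 11 between spermatids and pachytene cells. Pes1 turned from 0.10 to -0.70 (adjusted p = 0.00856) against type B and from 0.18 to -0.71 (adjusted p = 0.00677) against type A with the mean of its probe sets, since its second probe set fell; with the 75th percentile centring Pes1 was called higher against type A (0.56, adjusted p = 0.039). Between pachytene and type B cells the mean of the probe sets gave 3 higher genes instead of 5.

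Leaving out 1 array at a time gave 4 to 6 higher and 16 to 23 lower genes between pachytene and type A cells, 3 to 5 and 15 to 23 between pachytene and type B cells, and 1 to 6 and 5 to 7 between spermatids and pachytene cells. Between type B and type A cells it gave 0 in each. Such fits leave 1 group with a lone array, which is assumed to vary like the others. The replicate numbers did not pair the arrays (correlations of replicate differences -0.178 to 0.172). With the replicate block the counts of higher and lower genes were 6 and 22, 5 and 21, 4 and 7, and 0 and 0 in the order above, and it ended only the call of Polr1b against type B (adjusted p = 0.0555). With 2 arrays a group, a missed call does not show that a gene was level. Low signals, such as those of Polr1b in later cells, are the least precise.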
